A study of Mus musculus with 9 samples.

Results

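The genes described here are members of the kinesin superfamily in embryonic mouse lens, chosen by symbol. Every entry of the deposited expression table whose symbol begins with Kif followed by a digit or the letter c was taken. The accessory genes *Kifap3*, *Klc1*, *Klc2* and *Klc4* were added. A kinesin gene with another kind of symbol, such as *Cenpe*, is not among the members. The members number 42 of the 15820 entries that carry a symbol. Of them, 7 (*Kif2c*, *Kif4*, *Kif11*, *Kif18b*, *Kif20a*, *Kif22* and *Kif23*) form the mitotic group, and the other 35 were compared with it. RNA came from whole lenses of ICR-background mouse embryos at E16.5, sequenced as 9 libraries of 8 pooled lenses each, 3 libraries per genotype. Control lenses (*Mafg*+/-:*Mafk*+/-) were themselves heterozygous for both germline knockout alleles, compound KO lenses (*Mafg*-/-:*Mafk*+/-) lacked *Mafg*, and double KO lenses (*Mafg*-/-:*Mafk*-/-) lacked both genes. All groups therefore carry at least 1 knockout allele of each gene, and none is wild type. *Mafg* and *Mafk* encode small Maf transcription factors, and the comparisons ask how lens RNA differs when they are lost from the germline.

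Kinesins are motors that use ATP to walk along microtubules or to take them apart. Kinesin-1 is built from 2 heavy chains and 2 light chains and carries vesicles and organelles outward, kinesin-2 drives transport in cilia and axons, and kinesin-3 motors carry vesicle precursors over long distances. Another set works in dividing cells, where its members build the spindle, move chromosomes and complete cytokinesis. In the lens, cell division is confined to the epithelium, while fiber cells leave the cell cycle and elongate along ordered microtubules, so a whole lens holds RNA of both kinds of motor. In RNA from whole lenses, fewer cells of a type and less RNA per cell cannot be told apart.

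The values are the authors' normalized CPM (read counts put on a common library size), rounded to 1 decimal. The number of reads is unknown, so precision is given by the spread between the 3 libraries of a group. *Mafg* read 113 to 135 in control, 10.1 to 24.1 in compound KO and 21.2 to 26.2 in double KO lenses, and *Mafk* read 5.2 to 6.3, 4.3 to 5.3 and 0.0 to 0.6. *Mafg* was thus lower in both knockouts and *Mafk* lowest in double KO lenses, the direction that the genotypes state. No knockout library had *Mafg* near 0, and the source of the remaining signal was not tested. The lens label was borne out by its markers: *Mip*, the main fiber cell membrane protein, read 3103 to 10197 and *Foxe3*, an epithelial transcription factor, 36.0 to 127 in the 9 libraries. Compound KO replicate 1 stood apart. The 6 markers of neurons and neural retina summed to 1080 there against 23.4 to 239 elsewhere, the 4 of mesenchyme to 2031 against 169 to 273, the 4 of skeletal muscle to 121 against 1.5 to 37.8, and the 4 of proliferating cells to 278 against 63.8 to 153. Lens epithelium markers summed to 1070 in that library against 1523 to 3635 elsewhere, and fiber cell markers to 13028 against 25673 to 39391. *Pdgfra*, the fourth mesenchyme marker, went against the other 3, with 72.0 in that library against 123 to 173 elsewhere. *Myod1*, on the muscle list, was not highest there, with 2.6 against 6.2 to 9.2 in the other knockout libraries and 0.0 to 0.2 in control. *Pax6*, on the epithelial list, was highest in that library, with 162.7 against 88.0 to 149.0 elsewhere. The part these markers play in the kinesin values was not tested.

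The 42 kinesin genes are those that the deposited table names, and some members of the family are missing from it. It holds 6 of the 7 listed kinesin-3 genes, for example, and 4 of the 5 listed kinesin-14 genes. Of the 42 genes, 37 read at least 1 in all 9 libraries and 5 (*Kif14*, *Kif17*, *Kif19a*, *Kif20a* and *Kif23*) did not. On a per-length scale, as normalized CPM per kb of the canonical transcript, *Kif1a* stood first at 55.0 ± 11.8 (SD, n = 3). KIF1A is a kinesin-3 motor best known for carrying synaptic vesicle precursors in axons. *Klc1*, a kinesin-1 light chain, followed at 22.1 ± 3.48 CPM per kb, then *Kif1bp*, whose product binds several kinesins and is not itself a motor, at 19.9 ± 0.926, *Kif5c*, a kinesin-1 heavy chain, at 19.8 ± 0.967, and *Kif1b*, a further kinesin-3 motor, at 19.2 ± 1.98. These last 4 levels lay within the spread of their replicates, whereas *Kif3a*, a kinesin-2 motor, was lower at 13.8 ± 1.0 CPM per kb. The mitotic group lay further down this order of named entries, each of which may hold only part of its gene's reads. *Kif22*, at 5.72 ± 0.48 CPM per kb, and *Kif11*, at 5.23 ± 0.493, were its most abundant members and ranked 10 and 12 of 42. *Kif20a* at 1.39 ± 2.38 CPM per kb and *Kif23* at 0.917 ± 0.966 were its lowest, with an SD larger than the mean. The lowest levels of all were those of *Kif19a* (0.0742 ± 0.0425 CPM per kb), a motor of motile cilia, *Kif17* (0.0636 ± 0.0157) and *Kif14* (0.0224 ± 0.0194). Summed over the 42 genes, the kinesin RNA of a library lay between 1464 and 1716 normalized CPM in control, 1578 and 1827 in compound KO and 1411 and 1611 in double KO lenses, so the ranges of the groups overlapped.

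**Figure D1:**
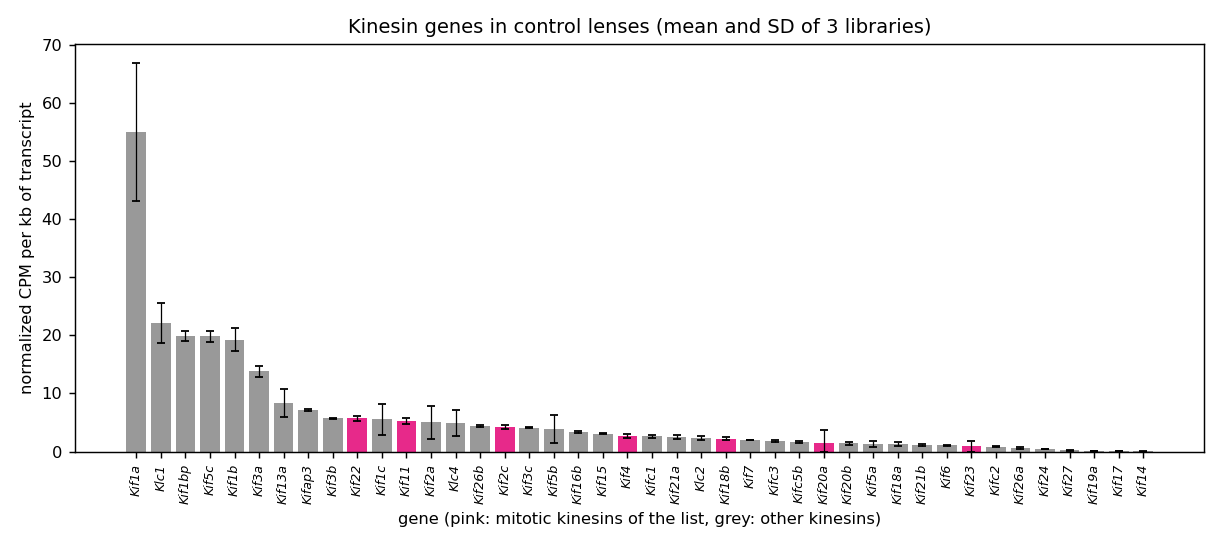
Level of each kinesin gene in control lenses, as normalized CPM per kb of its canonical transcript (bars, mean of 3 libraries; error bars, SD, with the lower bar stopped at 0), ordered from highest to lowest. *Kif1a* is highest at 55.0, and the mitotic kinesins of the list (pink) all lie at or below 5.72.

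When the genotypes were compared, no kinesin gene passed an adjusted p of at most 0.05 (limma, two-sided) with a 1.5-fold difference. The count was 0 of 39 tested members for double KO against control lenses, where 0.361% of all genes tested passed. It was 0 of 40 for compound KO against control lenses, where 0.0% did, and 0 of 41 for double KO against compound KO lenses, where 0.0139% did. A looser rule kept the fold and set the limit of 0.05 on the unadjusted p. It was passed by 1 member, *Kif4*, which was lower in double KO than in control lenses (2.83% of all genes passed in either direction, 1.59% as higher and 1.24% as lower). It was passed by 4 members in compound KO against control lenses, *Kif22*, *Kif24*, *Kif26a* and *Kifc1*, all higher (5.34% of all genes in either direction, 3.81% as higher and 1.53% as lower). With the 2 knockouts set against each other *Kif2a* alone passed, being lower in double KO lenses (3.06% of all genes in either direction, 0.854% as higher and 2.20% as lower). The members not tested were *Kif14*, *Kif17* and *Kif19a* in the first comparison, *Kif14* and *Kif17* in the second and *Kif17* in the third, because fewer than 2 of the 6 libraries reached a value of 1. The 3 comparisons share libraries and are not independent of one another.

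Between double KO and control lenses, the values of 10 of the 39 members did not overlap (25.6%), while 15.8% of all genes tested did not. They were higher in double KO lenses for *Kif15*, *Kif22*, *Kif24*, *Kif27*, *Kif3c*, *Kifc1* and *Klc2*, and lower for *Kif4*, *Kif26b* and *Kif5c*. Between compound KO and control lenses, 13 of 40 did not overlap (32.5%, against 23.9% of all genes), with 11 higher and 2 lower. With the knockouts set against each other, 5 of 41 did not overlap (12.2%, against 15.6%). The shares of all genes by direction are not given here, so the directions are listed as a description only. The heat map of all members by library places these differences beside the spread within groups.

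**Figure D2:**
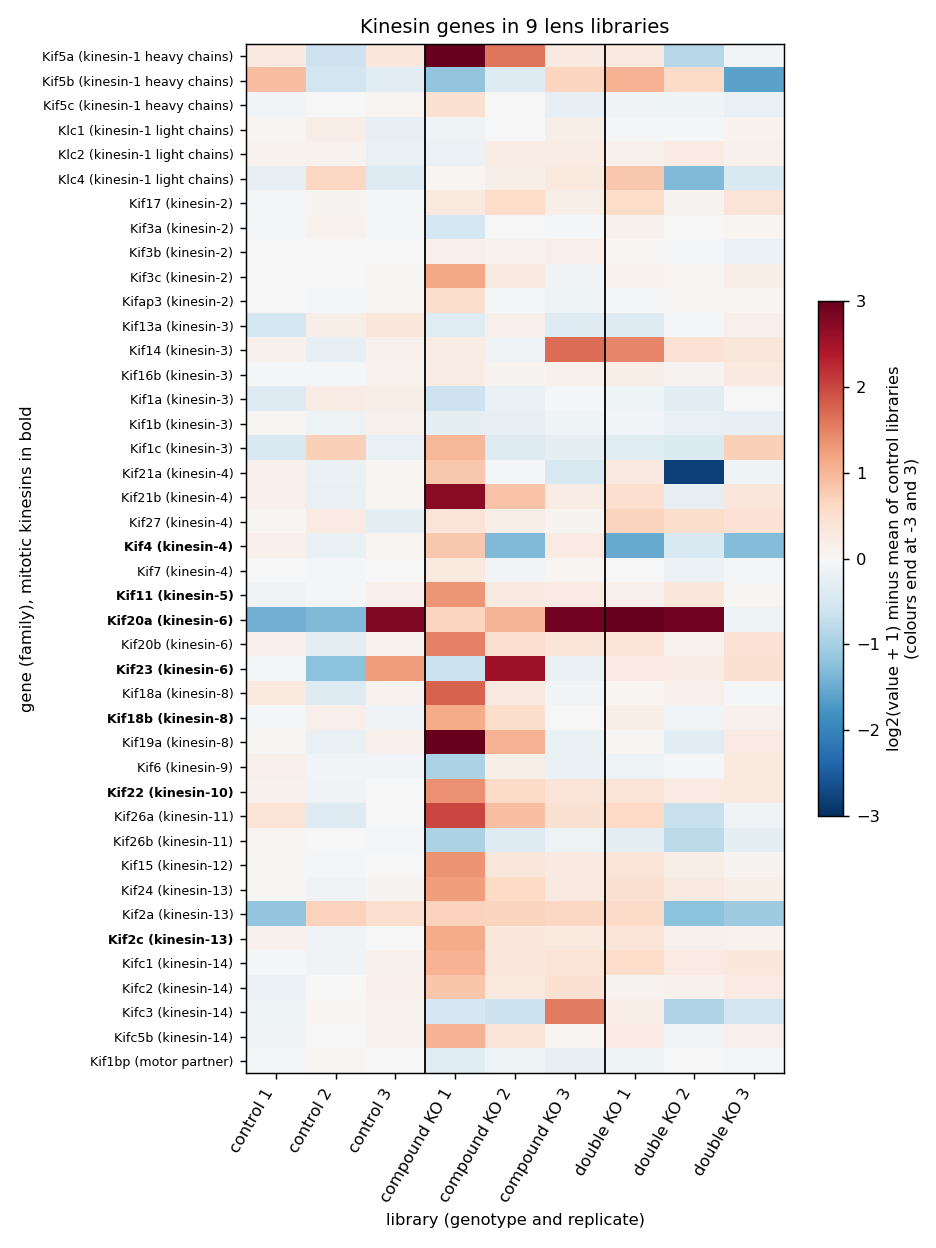
Each kinesin gene (row, with its family) in each of 9 libraries (column), as log2(value + 1) minus the mean of the 3 control libraries, with colours ending at -3 and 3. Most rows are pale across all groups, and the column of compound KO replicate 1 holds many of the strongest colours, with *Kif5a*, *Kif19a* and *Kif21b* the deepest red. *Kif20a* and *Kif23* vary within every group or nearly so.

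The mitotic group was centred above control in both knockouts, by little in double KO lenses. For double KO against control the median log2 fold change of its 7 members was 0.21 with 6 of 7 above 0, beside 0.01 for the 32 other kinesins tested (17 above 0) and 0.01 for all genes tested (52.7% above 0). For compound KO against control it was 0.58, again with 6 of 7 above 0, beside 0.14 for the 33 other kinesins (25 above 0) and 0.02 for all genes (52% above 0). Without compound KO replicate 1 that median was 0.31. For double KO against compound KO the median was −0.46 with 1 of 7 above 0, beside 12 of the 34 other kinesins and 49.2% of all genes, and −0.17 without that library. When the group was widened by *Kif14*, *Kif15*, *Kif18a*, *Kif20b* and *Kifc1*, which also act in division, the medians were 0.21, 0.62 and −0.45 in the 3 comparisons, and without compound KO replicate 1 the latter 2 were 0.31 and −0.10. These medians are descriptions of a list and were not tested. Most marker lists also lay off 0 in double KO lenses. Median log2 fold changes against control were 2.22 for skeletal muscle (3 of 3 tested above 0) and 1.53 for mesenchyme (3 of 4). They were 0.92 for erythroid cells (4 of 4), 0.31 for proliferating cells (4 of 4) and 0.27 for neurons and neural retina (6 of 6). Fiber cell markers had −0.29 (0 of 6), lens epithelium −0.27 (1 of 4) and endothelium 0.13 (3 of 3). Retinal pigment epithelium was near 0, at −0.04 (1 of 2 tested). The part of these marker lists in the mitotic median was not tested.

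*Kif22* showed the most even difference among the mitotic kinesins. It encodes the chromokinesin Kid, which pushes chromosome arms away from spindle poles. It read 13.2, 11.2 and 11.9 normalized CPM in control and 32.6, 18.5 and 16.1 in compound KO lenses. Its double KO values averaged 15.3 ± 1.06 (SD, n = 3), the lowest being 14.5. Every library of both knockouts was above every control library. Relative to control, its log2 fold change was 0.32 ± 0.10 (SE) in double KO lenses, short of 1.5-fold (limma, adjusted p = 0.372), and 0.78 ± 0.27 in compound KO lenses (limma, adjusted p = 0.481). Without compound KO replicate 1 the latter was 0.48, which is below 1.5-fold.

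*Kif4* ran the other way in double KO lenses. It encodes a chromokinesin that also sets the length of the overlapping microtubules in the spindle midzone. It read 15.6, 12.1 and 14.5 normalized CPM in control, 25.2, 5.0 and 16.7 in compound KO and 4.3, 9.9 and 5.1 in double KO lenses. All double KO values were below all control values, while the compound KO values lay on both sides of them. Against control, the double KO log2 fold change was −1.09 ± 0.29 (SE, limma, adjusted p = 0.31), and leaving out single libraries gave values from −1.4 to −0.88. In 1 fit of all 9 libraries, which takes the spread of the compound KO libraries into account, *Kif4* did not pass the looser rule. The value −0.09 between compound KO and control lenses became −0.54 without compound KO replicate 1, and 0.15 when each library was scaled to its total.

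*Kif11*, *Kif2c* and *Kif18b* showed a shared layout, with compound KO replicate 1 at the top. *Kif11*, the motor that slides spindle poles apart, read 23.7, 24.5 and 28.2 normalized CPM in control, 65.6, 31.0 and 30.4 in compound KO and 27.7, 31.8 and 26.0 in double KO lenses. *Kif2c*, a depolymerase that corrects faulty chromosome attachments, read 12.8, 10.8 and 11.5 in control, 26.5, 14.9 and 14.5 in compound KO and 15.7, 12.8 and 12.7 in double KO lenses. For both genes all compound KO libraries exceeded all control libraries, while double KO and control values overlapped. Compound KO against control gave a log2 fold change of 0.62 ± 0.31 for *Kif11* and 0.58 ± 0.25 for *Kif2c* (limma, adjusted p = 0.481 for both), and without compound KO replicate 1 it was 0.26 and 0.31. *Kif18b*, which trims astral microtubules, read 7.2, 8.4 and 6.8 in control, 17.4, 11.1 and 7.4 in compound KO and 8.6, 7.0 and 8.3 in double KO lenses, so both knockouts overlapped the controls.

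*Kif20a* and *Kif23*, kinesin-6 motors of the midzone and of the centralspindlin complex, varied more within groups than between them. *Kif20a* read 0.0, 0.1 and 17.6 normalized CPM in control, 3.3, 4.5 and 19.4 in compound KO and 21.5, 19.2 and 1.5 in double KO lenses. It was either at or below 4.5 or at or above 17.6, and each genotype held libraries of both kinds. *Kif23* read 2.2, 0.4 and 6.8 in control, 1.1, 17.9 and 1.8 in compound KO and 2.9, 2.8 and 3.5 in double KO lenses. Its highest value was compound KO replicate 2 and its lowest control replicate 2. Double KO against control gave a log2 fold change of 1.93 ± 1.45 for *Kif20a* and 0.31 ± 0.61 for *Kif23* (limma, adjusted p = 0.739 and 0.915). The 95% intervals reach from −1.67 to 5.53 and from −1.21 to 1.83.

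**Figure D3:**
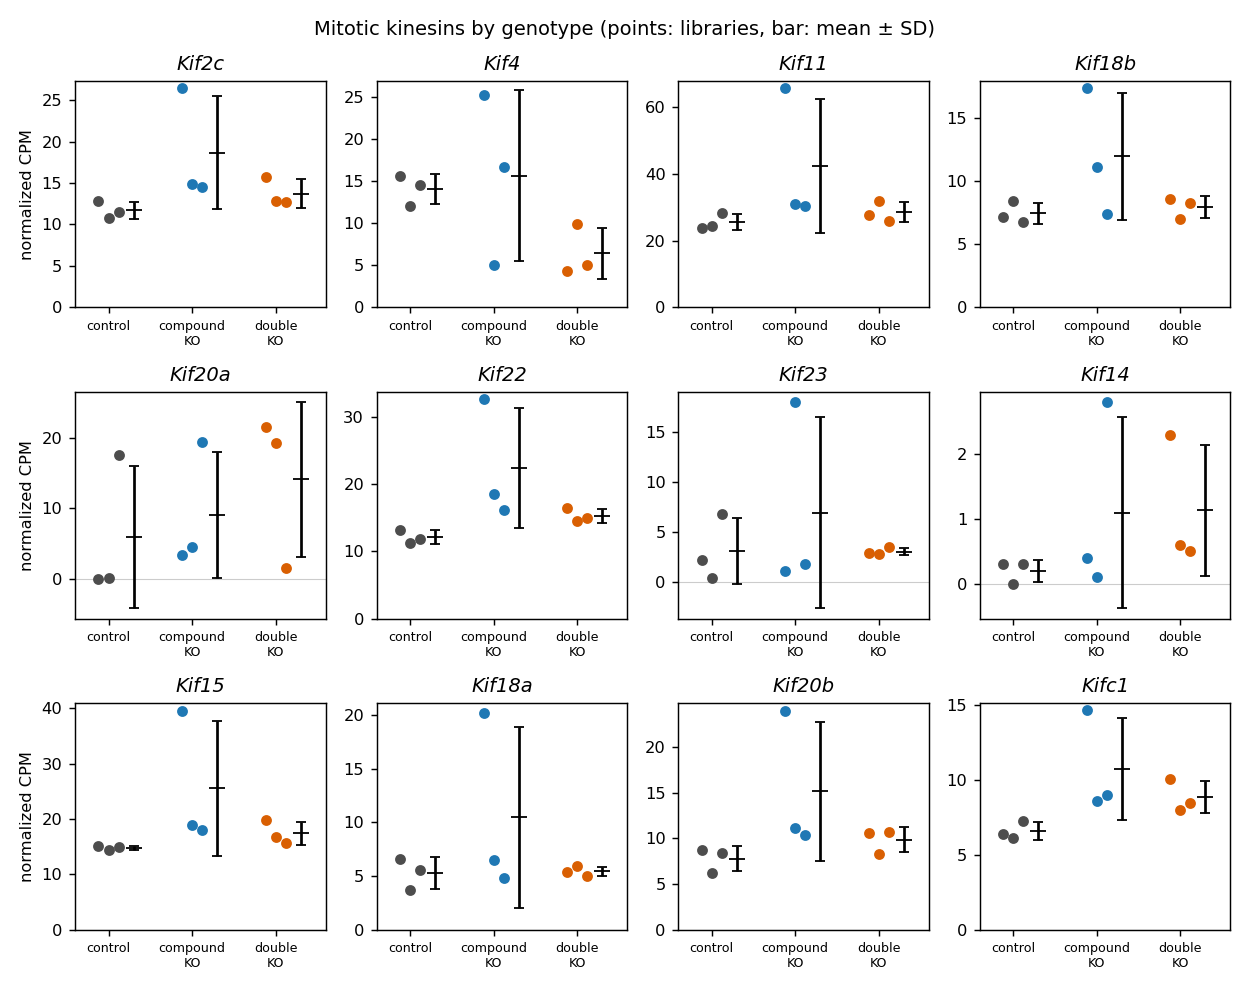
Normalized CPM of the 7 mitotic kinesins and of the 5 further division genes *Kif14*, *Kif15*, *Kif18a*, *Kif20b* and *Kifc1* by genotype (points, libraries in the order of their replicate numbers; line and bar beside them, mean and SD, n = 3). Compound KO replicate 1 is the highest point for *Kif2c*, *Kif4*, *Kif11*, *Kif18b* and *Kif22*, and only *Kif4* has all of its double KO points below the controls.

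Since the mitotic kinesins are expressed in the same phase of the cell cycle, the sequence around their starts is shown where a cell cycle motif was found. The cell cycle genes homology region, which binds the repressor and activator complexes that time late cell cycle genes, was searched as TTTGAA on either strand in windows from 250 bases before to 50 bases after the start of each gene in RefSeq. A window was at hand for 33 of the 42 kinesin genes and for 6 of the 7 mitotic kinesins. All 6 of those mitotic windows held TTTGAA, as did 4 of the 5 windows of the added division genes (*Kif14*, *Kif15*, *Kif20b* and *Kifc1*), 4 of the 22 other kinesin windows (18.2%, *Kif1a*, *Kif26b*, *Kif27* and *Kifc5b*), and 20.2% of the 27025 genes with a window. The 30 bases below were read from the RefSeq windows (a table of build GRCm38.p6) and located by exact match in GRCm39, on the strand of the gene, with the motif or its reverse complement TTCAAA in capitals and 12 bases before and after it. Positions count from the RefSeq start as 0.
Kif11, chr19:37364799-37364828, + strand, motif from −19: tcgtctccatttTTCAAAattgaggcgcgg
Kif18b, chr11:102815930-102815959, - strand, motif from 3: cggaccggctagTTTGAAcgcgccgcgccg
Kif22, chr7:126641592-126641621, - strand, motif from −17: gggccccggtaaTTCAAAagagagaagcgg
Kif23, chr9:61854062-61854091, - strand, motif from 2: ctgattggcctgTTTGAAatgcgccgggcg
Kif2c, chr4:117036055-117036084, - strand, motif from −103: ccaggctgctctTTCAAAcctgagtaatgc
Kif4, chrX:99669678-99669707, + strand, motif from 19: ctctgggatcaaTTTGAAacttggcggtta

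In 5 of these 6 genes the match began within 19 bases of the RefSeq start, before it in *Kif11* and *Kif22* and after it in *Kif18b*, *Kif23* and *Kif4*, and in *Kif2c* it began 103 bases before. GENCODE places the starts elsewhere. Counted from the start of its canonical transcript, the match began at 12 in *Kif11*, 9 in *Kif18b*, 34 in *Kif22*, −6 in *Kif23*, 347 in *Kif4* and 3764 in *Kif2c*. *Kif22* held a second match from −215. The CCAAT box, searched as CCAAT on either strand, was in 5 of the 6 mitotic windows, with *Kif2c* the exception, and in 41.1% of genes with a window. A core of the element bound by small Maf proteins with their CNC partners, searched as TGACNNNGC on either strand, was in 0 of the 6 mitotic windows, in *Kifc1* among the added genes and in *Kif17* and *Kifc5b* among the other 22, against 14% of genes with a window. A match describes letters in a window and not a bound site, and *Kif4* and *Kif22*, whose double KO values lay on opposite sides of the controls, both held the TTTGAA motif and the CCAAT box.

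Of the added division genes, *Kif15* and *Kifc1* followed *Kif22* more closely than *Kif4*. *Kif15*, a motor that can stand in for KIF11 in holding the spindle open, read 15.1, 14.4 and 15.0 normalized CPM in control, 39.6, 18.9 and 18.1 in compound KO and 19.8, 16.8 and 15.7 in double KO lenses. *Kifc1*, a motor that walks toward the minus end and focuses spindle poles, read 6.4, 6.1 and 7.3 in control, 14.7, 8.6 and 9.0 in compound KO and 10.1, 8.0 and 8.5 in double KO lenses. For both genes every knockout library was above every control library. Against control, *Kifc1* had a log2 fold change of 0.60 ± 0.23 in compound KO lenses (limma, adjusted p = 0.481), 0.37 without compound KO replicate 1, and 0.37 ± 0.12 in double KO lenses (limma, adjusted p = 0.404).

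Reads of *Kifc1* are not certain to be its own, since 12.7% of the stretches of read length in its transcripts also occur in those of *Kifc5b*. *Kifc5b* read 4.4 to 5.2 in control, 5.0 to 10.9 in compound KO and 4.5 to 5.9 in double KO lenses, and it was 0.556 to 0.787 times as high as *Kifc1* in every library. *Kif20b*, which acts late in cytokinesis, read 6.2 to 8.7, 10.4 to 23.9 and 8.3 to 10.7, with all compound KO values above the controls. *Kif18a*, which brings chromosomes to the spindle equator, read 3.7 to 6.6, 4.8 to 20.2 and 5.0 to 5.9, and the groups overlapped. *Kif14*, a cytokinesis motor, reached at most 2.8 in any library.

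Compound KO replicate 1 exceeded every other library by at least 1.5 times for 15 of the 41 kinesins with values to compare (36.6%), while this held for 14.4% of all genes. Those 15 included 5 of the 7 mitotic kinesins (*Kif2c*, *Kif4*, *Kif11*, *Kif18b* and *Kif22*) and also motors of neurons and cilia. It was above every other library by any margin for 22 of the 41 (53.7%, against 33.5% of all genes), and the lowest library for 6, *Kif1a*, *Kif1b*, *Kif1bp*, *Kif26b*, *Kif3a* and *Kif6*, against 28% of all genes. Without this library, 0 kinesin genes passed the looser rule in compound KO against control lenses in place of 4, and 0 in place of 1 for the 2 knockouts against each other. Of the 4, *Kif22*, *Kif24* and *Kifc1* then fell short of 1.5-fold but kept the limit on p. Their log2 fold changes were 0.48, 0.44 and 0.37 (limma, unadjusted p = 0.0103, 0.0429 and 0.0297). *Kif26a* kept the fold, at 0.68, but not the limit on p (limma, unadjusted p = 0.068). All medians of that library's group also depend on the scaling: when each library was scaled to its total, the median log2 fold change of all genes between compound KO and control lenses moved from 0.02 to 0.24, that of the mitotic kinesins from 0.58 to 0.82 with 7 of 7 above 0, and the genes passing the looser rule moved from 547 higher and 219 lower to 748 higher of 839.

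Kinesin-1, the conventional transport motor, held the clearest example of a gene that followed this library. *Kif5a*, its neuronal heavy chain, read 6.4, 3.0 and 6.7 normalized CPM in control, 87.3, 17.5 and 6.4 in compound KO and 6.4, 2.4 and 4.8 in double KO lenses. Compound KO replicates 1 and 2 were above all others, and these were also the libraries with the highest sums of neuron and neural retina markers, 1080 and 239. Its compound KO log2 fold change against control was 1.91 ± 0.92 (SE, limma, adjusted p = 0.481) and 0.94 without compound KO replicate 1. *Kif5c*, a heavy chain enriched in neurons, read 129.4, 138.5 and 142.4 in control, 188.8, 135.6 and 115.4 in compound KO and 127.6, 124.2 and 117.6 in double KO lenses. Its double KO values all lay just below the controls, by a log2 fold change of −0.15 ± 0.06 (limma, adjusted p = 0.47), far short of 1.5-fold. *Kif5b*, the heavy chain found in most tissues, read 40.0, 13.6 and 16.0 in control, 8.5, 15.7 and 32.9 in compound KO and 44.0, 31.3 and 6.1 in double KO lenses. Each genotype spanned most of its range.

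Among the light chains, which bind cargo and hold the motor inactive without it, *Klc1* differed little between genotypes. *Klc1* read 105.3, 116.8 and 85.0 normalized CPM in control, 93.3, 100.4 and 115.7 in compound KO and 99.4, 98.5 and 109.6 in double KO lenses, with log2 fold changes of 0.01 ± 0.12 in double KO and 0.02 ± 0.15 in compound KO lenses against control. The 95% interval for double KO lenses, −0.30 to 0.32, excludes a 1.5-fold difference in either direction. *Klc2* read 8.4, 8.4 and 6.5 in control, 6.7, 9.2 and 9.1 in compound KO and 8.6, 9.3 and 8.5 in double KO lenses. Its double KO values lay above the controls by as little as 0.1 unit, the last decimal of the table. *Klc4* read 10.7, 20.3 and 9.5 in control, 13.4, 14.5 and 15.8 in compound KO and 23.1, 4.5 and 9.1 in double KO lenses, so it varied most within control and double KO lenses. Its double KO log2 fold change against control was −0.32 ± 0.59. The 95% interval, −1.78 to 1.14, includes a 1.5-fold difference in either direction.

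Kinesin-2, the motor that carries material toward the tip of cilia, held 3 subunits that differed little between double KO and control lenses. *Kif3a*, 1 of its motor subunits, read 71.6, 81.5 and 72.5 normalized CPM in control, 51.8, 74.7 and 72.5 in compound KO and 82.5, 75.0 and 77.6 in double KO lenses. *Kif3b*, its partner, read 32.3, 32.1 and 32.9 in control, 36.0, 34.8 and 36.2 in compound KO and 33.1, 31.6 and 28.8 in double KO lenses. *Kifap3*, the subunit that links the motor to cargo, read 52.2, 50 and 53.2 in control, 75.5, 50.5 and 46.7 in compound KO and 50.2, 52.8 and 53.8 in double KO lenses. In double KO lenses the log2 fold changes of these 3 subunits against control were 0.06 ± 0.07, −0.06 ± 0.07 (0.01 with library totals) and 0.01 ± 0.05, and each 95% interval stayed within −0.23 to 0.24. *Kif3b* was higher in all compound KO than in all control libraries, by a log2 fold change of 0.13 ± 0.07 (limma, adjusted p = 0.481).

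The alternative kinesin-2 motors were less even. *Kif3c*, a motor subunit abundant in neurons, read 28, 28 and 28.8 normalized CPM in control, 64.3, 34.3 and 26.0 in compound KO and 30.7, 29.3 and 32.5 in double KO lenses. Its double KO values were above the controls without overlap, by a log2 fold change of 0.12 ± 0.06 (limma, adjusted p = 0.6), and compound KO replicate 1 was the highest library. *Kif17*, a motor of dendrites and cilia, read 0.2, 0.3 and 0.2 in control, 0.5, 0.8 and 0.4 in compound KO and 0.8, 0.3 and 0.6 in double KO lenses, too low to be tested.

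**Figure D4:**
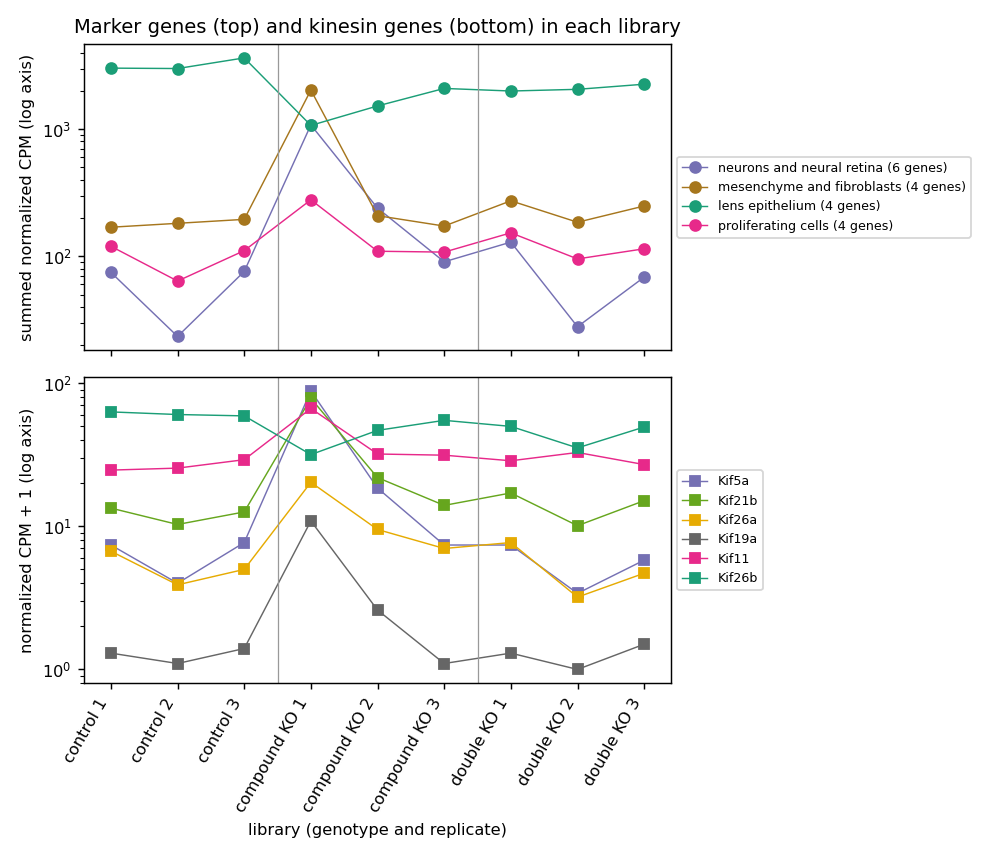
Top, summed normalized CPM (log axis) of marker genes of neurons and neural retina, mesenchyme, lens epithelium and proliferating cells in each of 9 libraries; bottom, normalized CPM + 1 (log axis) of 6 kinesin genes in the same libraries. Compound KO replicate 1 has the highest marker sums except for lens epithelium and the highest *Kif5a* (87.3), *Kif21b* (77.3), *Kif26a* (19.3), *Kif19a* (9.9) and *Kif11* (65.6), and the lowest *Kif26b* (30.7).

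*Kif21b* and *Kif21a*, kinesin-4 motors that restrain microtubule growth, differed from each other. *Kif21b* read 9.3 to 12.4 normalized CPM in control, 13 to 77.3 in compound KO and 9.1 to 16.1 in double KO lenses, and its compound KO values did not overlap the controls. For *Kif21b* the compound KO log2 fold change against control was 1.26 ± 0.64 (limma, adjusted p = 0.481) and 0.54 without compound KO replicate 1. *Kif21a* read 14.2 to 18.4, 11.5 to 29.4 and 1.5 to 20.1, with 1 low value in double KO replicate 2. *Kif7*, a ciliary regulator of Hedgehog signalling, stayed between 8.1 and 11.6 in all 9 libraries. *Kif27*, its paralogue of motile cilia, read 1.0 to 1.9 in control, 1.6 to 2.2 in compound KO and 2.3 to 2.9 in double KO lenses. All double KO values of *Kif27* were above all others, with a log2 fold change of 0.55 ± 0.17 against control on the log2(value + 1) scale (limma, adjusted p = 0.379).

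*Kif26a* and *Kif26b*, kinesin-11 proteins that act in signalling rather than transport, lay on opposite sides of the controls in compound KO lenses. *Kif26a*, known as a brake on growth factor signalling in enteric neurons, read 5.7, 2.9 and 4.0 normalized CPM in control, 19.3, 8.5 and 6.0 in compound KO and 6.7, 2.2 and 3.7 in double KO lenses. All compound KO values were above the controls, by a log2 fold change of 1.12 ± 0.44 (SE, limma, adjusted p = 0.481), and by 0.68 without compound KO replicate 1, which did not pass the looser rule. The double KO values of *Kif26a* overlapped the controls, with equal means of 4.2. *Kif26b*, a component of noncanonical Wnt signalling, read 62.0, 59.4 and 58.1 in control, 30.7, 45.8 and 54.0 in compound KO and 48.9, 34.3 and 48.4 in double KO lenses. Every knockout library was below every control library, and the control values were close together. Relative to control, the log2 fold change of *Kif26b* was −0.46 ± 0.15 in double KO lenses (limma, adjusted p = 0.389) and −0.49 ± 0.21 in compound KO lenses (limma, adjusted p = 0.481), which is below 1.5-fold in both, and the latter was −0.26 without compound KO replicate 1. Lens fiber and epithelial marker sums were also lower in every knockout library than in every control library, at 13028 to 28202 against 32569 to 39391 and at 1070 to 2258 against 2999 to 3635, and their part in the *Kif26b* values was not tested. *Cryab* makes up most of the epithelial sum, and *Pax6*, on the same list, was above 0 instead, with log2 fold changes of 0.21 in double KO and 0.55 in compound KO lenses. *Crygd* is the largest part of the fiber sum, with 15958 of 32642 in control replicate 1. Between double KO and control lenses *Mip* (7835 to 8987 against 8879 to 10197), *Lim2* and *Bfsp2* overlapped. *Crygd*, *Bfsp1* and *Dnase2b* did not.

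Among the kinesin-3 motors, *Kif1a* read 383.1, 580.3 and 562.7 normalized CPM in control, 324.1 to 484.5 in compound KO and 398.3 to 501.2 in double KO lenses, and all groups overlapped. *Kif1b*, which carries mitochondria and synaptic vesicle precursors, read 187.3 to 230.2 in control, 172.2 to 191.5 in compound KO and 177.2 to 197.8 in double KO lenses. Its double KO log2 fold change was −0.19 ± 0.09 (limma, adjusted p = 0.585). *Kif1bp* read 47.0 to 51.6 in control and 37.9 to 45.2 in compound KO lenses without overlap, by a log2 fold change of −0.24 ± 0.09 (limma, adjusted p = 0.481), which was 0.01 with library totals, and 44.2 to 48.6 in double KO lenses. *Kif16b*, an endosomal motor, was among the steadiest genes at 15.2 to 19.3 in all libraries. *Kif1c* and *Kif13a* each held high and low libraries in every genotype, from 26.2 to 75.0 and from 39.1 to 71.6.

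The remaining members had low levels. *Kifc2*, a minus-end motor of neurons, read 2.5 to 3.4 normalized CPM in control, 3.8 to 6.0 in compound KO and 3.2 to 3.7 in double KO lenses, with compound KO above control without overlap by a log2 fold change of 0.52 ± 0.20 (limma, adjusted p = 0.481), short of 1.5-fold on the log2(value + 1) scale. It passed the looser rule with a pseudocount of 0.1 (0.64) and with library totals (0.73), and was 0.37 without compound KO replicate 1. *Kif19a* read 9.9 in compound KO replicate 1 and at most 1.6 elsewhere. *Kif6*, a further motor of motile cilia, read 1.5 in that library and 3.2 to 4.9 elsewhere.

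The entries are transcripts assembled by the authors, and 6193 of the 22013 carry no symbol, so a gene's reads can be shared with an entry that is not named. For each kinesin gene the unnamed entry with the most opposite values was searched, with r of at most −0.95 over 9 libraries and again over 8 without compound KO replicate 1. It was found for 4 of 41 kinesins (*Kif2a*, *Kif24*, *Kifc3* and *Klc4*), against 5.4% of the 14578 named entries searched. Those entries have no gene name in the table, and whether they belong to the kinesin loci was not tested.

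*Kif2a*, a depolymerase of growing neurons and of the spindle, is the plainest case. It read 12.2, 47.5 and 41.2 normalized CPM in control, 47.2, 46.7 and 45.0 in compound KO and 43.5, 11.7 and 13.4 in double KO lenses. The opposite entry read 30.1, 0.3 and 0.1, then 0.1, 0.0 and 0.3, then 0.4, 27.9 and 25.2, so it was present in the 3 libraries in which *Kif2a* was low and near 0 in the other 6. *Kif2a* with it added read 38.6 to 47.8 over the 9 libraries, against 11.7 to 47.5 alone. The entry was picked for being opposite, so a more even sum follows from the choice and supports nothing about shared reads. For double KO against compound KO the log2 fold change of *Kif2a* was −1.23 ± 0.49 (SE, limma, adjusted p = 0.665). With the entry added it was −0.19 and did not pass the looser rule, and this smaller value also follows from the choice.

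The entries opposite to *Klc4* and to *Kifc3*, a minus-end motor of cell junctions, were picked in the same way. *Klc4* read 4.5 to 23.1 over the 9 libraries and its opposite entry 0.2 to 17.8. *Kifc3* read 5.8 to 7.2 normalized CPM in control, 4.4, 3.9 and 21.4 in compound KO and 3.1 to 7.8 in double KO lenses, and its entry was lowest (1.7) in the library where *Kifc3* was highest. *Kif24*, which keeps cilia from forming in cycling cells, read 3.3, 2.9 and 3.5 in control, 9.0, 5.4 and 4.1 in compound KO and 4.8, 4.1 and 3.8 in double KO lenses, each knockout library above each control library. Its compound KO log2 fold change against control was 0.70 ± 0.27 (limma, adjusted p = 0.481), and 0.44 without compound KO replicate 1. With its opposite entry added, which read 5.3 to 10.6 and was never near 0, the log2 fold change was 0.02. That entry was also picked for being opposite, so the smaller value follows from the choice and supports nothing about shared reads. *Kif20a*, with its high and low libraries in each genotype, and *Kif4* did not meet the limit, with r of −0.877 and −0.762 over 9 libraries and −0.898 and −0.768 over 8.

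**Figure D5:**
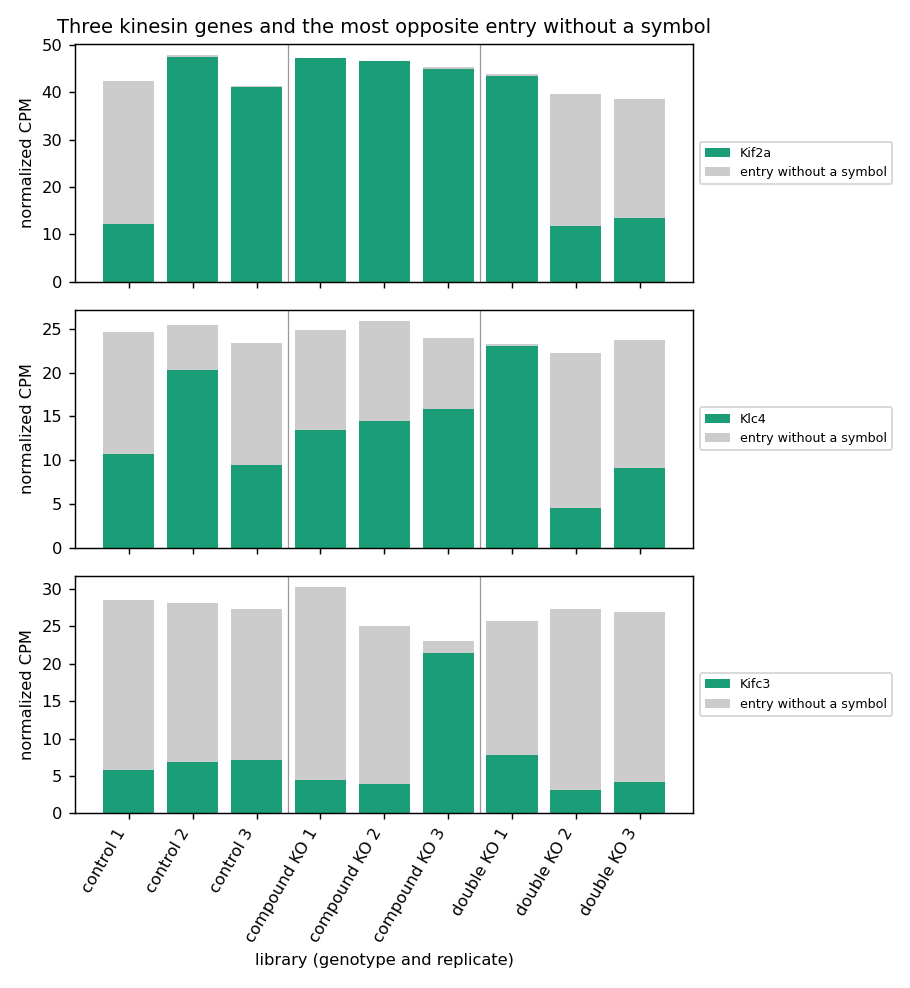
Stacked bars of normalized CPM in each of 9 libraries for *Kif2a*, *Klc4* and *Kifc3* (green) and for the unnamed entry most opposite to each (grey). The green bars vary widely within genotypes, from 11.7 to 47.5 for *Kif2a*, and the grey bars are high where they are low, which is how the entries were picked.

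Genes that work with these motors were counted in the same fits. Of 22 spindle and cytokinesis genes listed as partners of the mitotic kinesins, 0 passed with adjustment in any comparison. They include *Cenpe*, itself a kinesin gene that the rule by symbol leaves out. Under the looser rule, 7 were higher and 0 lower in compound KO against control lenses (*Bub1*, *Bub1b*, *Ckap2*, *Kntc1*, *Nuf2*, *Tpx2* and *Aurkb*, against 3.81% of all genes for higher), and without compound KO replicate 1 the count was 0 higher and 0 lower. In that smaller fit *Ckap2*, *Kntc1*, *Nuf2*, *Tpx2* and *Aurkb* kept the limit on the unadjusted p and fell short of 1.5-fold. *Bub1* and *Bub1b* did not keep the limit on p. The median log2 fold change of the 22 genes between compound KO and control lenses was 0.575 (21 above 0). Without compound KO replicate 1 it was 0.264 (20 above 0). *Tpx2*, a spindle assembly factor that binds KIF11 and KIF15, read 31.0, 27.7 and 27.4 in control, 78.4, 44.9 and 35.0 in compound KO and 35.6, 33.7 and 30.2 in double KO lenses. Its compound KO log2 fold change against control was 0.78 ± 0.29 (limma, adjusted p = 0.481) and 0.45 without compound KO replicate 1. None of the 22 passed the looser rule in double KO against control lenses, where their median log2 fold change was 0.20 with 20 of 22 above 0, beside 0.21 for the mitotic kinesins.

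Of 21 cytoplasmic dynein and dynactin genes tested, which encode the motor that walks opposite to most kinesins, 1 passed the looser rule, *Dync1i1*, as lower in double KO (1.24% of all genes) and in compound KO lenses (1.53%) against control. This dynein intermediate chain read 41.9, 39.5 and 39.8 normalized CPM in control, 14.3, 27.5 and 30.1 in compound KO and 22.5, 23.6 and 28.1 in double KO lenses, all knockout values below all controls. Its log2 fold change was −0.69 ± 0.09 in double KO lenses (limma, adjusted p = 0.0766) and −0.80 ± 0.28 in compound KO lenses (limma, adjusted p = 0.481), where it was −0.48 and short of 1.5-fold without compound KO replicate 1. Of 17 kinesin-1 cargo adaptors, under the looser rule 1 was lower between double KO and control lenses (*Clstn2*, log2 fold change −0.88, limma, adjusted p = 0.318, against 1.24% of all genes). Between compound KO and control lenses 1 was higher (*Arl8a*, against 3.81%) and 1 lower (*Rhot1*, against 1.53%), and without compound KO replicate 1 neither passed and *Clstn2* did, as lower. None of the 17 passed with adjustment (0 in each comparison). Of the 18 intraflagellar transport genes that kinesin-2 carries in cilia, 0 passed the looser rule in any of the 3 comparisons.

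The pattern of the mitotic group over the libraries was described by the mean log2(value + 1) of its 7 members, which was lowest in control replicate 2 (2.77) and highest in compound KO replicate 1 (4.0). Among the genes with the most similar pattern over the 9 libraries were *Zfp639* (Pearson r = 0.966), *Faim* (0.919), *Fam73b* (0.908) and *Bap1* (0.901), and *Zfp639* had an r of 0.964 over the 8 libraries without compound KO replicate 1. The mean gives much weight to *Kif20a* and *Kif23*, whose values differ most between libraries, and the libraries share these values, so the correlations are descriptions over 9 points.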

How the data were processed

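The authors trimmed strand-specific paired-end reads, used HISAT2 for alignment to mm39 and StringTie for counts of transcripts, and normalized and filtered them in edgeR (versions not given in the sources used here; Trimmomatic and Cufflinks are also listed in the submitters' processing notes). The deposited values are a normalized signal: CPM scaled by 1 composition factor per library, rounded to 1 decimal, with totals of 728036 to 1131184 and a geometric mean of 1000012. Depth could not be recovered, since every step of 0.1 up to 5 occurred in each library. Transcript-level entries can divide a gene's reads, and values of 0 may be failed assignments.

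Libraries were grouped by labelled genotype. The plan named a count model for counts and limma for normalized values, and the latter was used: limma 3.58.1 (R 4.3.3), two-sided, with trend, on log2(value + 1), fitted to 6 libraries at a time. Entries entered with a symbol and 2 or more libraries at 1 or above, with Benjamini-Hochberg adjustment over all entries tested. A call needed 1.5-fold and an adjusted p no higher than 0.05, and the looser rule took the unadjusted p in its place. P-values measure the spread between libraries of pooled lenses. Libraries with the same replicate number were not treated as pairs. Correlations between them were −0.106 to 0.216, against −0.223 to 0.189 between libraries of other numbers, and these ranges overlap. The script was tested on simulated data. Values by library were given for the 7 mitotic kinesins (the double KO values of *Kif22* by their mean and lowest), kinesin-1, kinesin-2 and every member passing either rule, and the others by family, range and counts. *Kif15* and *Kif26b*, among others outside this rule, were described with statistics after their values were seen. The members and lists were chosen with earlier results of these data known. Levels per kb used GENCODE release M39 canonical transcripts on GRCm39, and promoter windows came from RefSeq. Python 3.11.15 with numpy 2.4.6, pandas 2.3.3 and matplotlib 3.10.9 was used for summaries. Alternatives were other scalings, filters, pseudocount, fits, pairing and leaving out libraries. A gene of similar pattern to the mitotic group is not reported here.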

Additional observations from a re-analysis of the deposited data

How the results depend on the processing

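The number of kinesin genes called with adjustment (limma) was 0 in each comparison under all 16 alternatives, with a lowest adjusted p of 0.0645 (double KO against compound KO, without double KO replicate 1). Numbers passing the looser rule, with the unadjusted p, depended on the setting. Between double KO and control lenses it was 1, 0 in 1 fit of all 9 libraries, 2 with a pseudocount of 0.1, and 1 to 2 when each library was left out (2 without control replicate 2 or 3 or double KO replicate 1 or 3). Between compound KO and control lenses it was 4, 2 with library totals, 7 in the fit of all 9 libraries, and 0 to 13 when each library was left out: 0 without control replicate 1 or 2 or compound KO replicate 1, 1 without control replicate 3, and 13 without compound KO replicate 3. Between double KO and compound KO lenses it was 1, 2 in the fit of all 9, 3 with the replicate block (*Kif26a*, *Kif2a* and *Kif5a*), 0 with the opposite entry added, which was chosen after seeing the data, and 0 to 5 when each library was left out: 0 without compound KO replicate 1 or double KO replicate 2 or 3, 2 without compound KO replicate 2, 5 without compound KO replicate 3 and 3 without double KO replicate 1. Fits with fewer libraries have less information on the spread. Why the counts moved was not tested. No direction of a gene that passed reversed. The replicate number as a block lost *Kif24* and *Kifc1* and gained *Kif20a* and *Kif20b* between compound KO and control lenses, so the count stayed at 4, and it is a shared number only. The unknown depth limits what can be said of genes near 1 CPM, such as *Kif14*, *Kif17* and *Kif19a*.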
